A study of Mus musculus with 12 samples.

Results

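The transcripts of 10 genes of IL-1, IL-6 and TNF reception and of NF-kB control were examined, out of 55416 genes listed in each expression table. They were taken by gene name, and all 10 were present in the tables of both tissues. The 10 members are the receptor chains Il1r1, Il1rap, Il6ra and Tnfrsf1a, the receptor antagonist Il1rn, the NF-kB subunits Nfkb1 and Nfkb2, the kinase scaffold Ikbkg, and the inhibitors Nfkbia and Tnfaip3. Male C57BL6/J mice that were 8 weeks old at the start received subcutaneous corticosterone (CORT), the main glucocorticoid of rodents, at 40 mg/kg daily for 8 weeks. The control mice (Veh) received the vehicle of DMSO, Tween-80 and water alone for the same time. Bulk RNA of the duodenum and of the liver, from 50 mg of tissue per sample, was sequenced in 3 Veh and 3 CORT samples of each tissue. The labels number the samples as biological replicates, and they do not say whether a duodenum and a liver with the same number came from 1 mouse. P-values therefore measure the spread between these samples.

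Cytokines of the IL-1, IL-6 and TNF families act on cells through receptors at the plasma membrane, and the IL-1 and TNF receptors both lead to NF-kB. In resting cells NF-kB dimers are held in the cytoplasm by IkB proteins. A kinase complex built on the scaffold NEMO marks the IkB proteins for degradation, after which the dimers enter the nucleus and turn on, among other targets, the genes of their own inhibitors. IL-6 signals instead through gp130 and the JAK-STAT pathway, which in hepatocytes drives the acute phase response. Glucocorticoids are known to restrain NF-kB and to act together with IL-6 in the liver.

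Promoter sequences are shown for the 2 members that rose in the liver, Il1r1 and Il6ra, and for the inhibitors Nfkbia and Tnfaip3, which are textbook NF-kB targets. Each is the stretch of 250 bases before a RefSeq transcription start, 5′ to 3′ on the strand of the gene, from the RefSeq promoter table of build GRCm38.p6, whereas the expression tables were made on GRCm39. Capitals mark matches, on either strand, to GGNNNTTCC, to GGACTTTCC, to the kB consensus, to the palindromic glucocorticoid response element, or to AGAACA, a single arm of that element, and some of these motifs overlap. Il1r1 has 2 starts in the table.
Il1r1, start 1, chr1:40224830-40225079, plus strand: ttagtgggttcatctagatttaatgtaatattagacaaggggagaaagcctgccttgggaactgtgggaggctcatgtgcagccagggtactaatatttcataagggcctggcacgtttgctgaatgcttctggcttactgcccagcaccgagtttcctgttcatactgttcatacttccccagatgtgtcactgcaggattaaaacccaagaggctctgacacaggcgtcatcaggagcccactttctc
Il1r1, start 2, chr1:40266336-40266585, plus strand: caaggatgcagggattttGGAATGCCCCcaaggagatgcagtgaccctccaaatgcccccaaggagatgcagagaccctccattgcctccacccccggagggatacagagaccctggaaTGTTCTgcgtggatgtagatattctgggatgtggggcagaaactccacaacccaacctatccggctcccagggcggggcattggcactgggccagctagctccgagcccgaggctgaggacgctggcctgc
Il6ra, chr3:89913197-89913446, minus strand: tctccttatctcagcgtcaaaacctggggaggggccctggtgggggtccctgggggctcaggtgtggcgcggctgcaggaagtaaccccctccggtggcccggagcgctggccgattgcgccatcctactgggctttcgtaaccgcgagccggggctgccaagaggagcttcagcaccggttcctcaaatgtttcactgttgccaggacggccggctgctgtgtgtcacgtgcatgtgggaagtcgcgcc
Nfkbia, chr12:55492648-55492897, minus strand: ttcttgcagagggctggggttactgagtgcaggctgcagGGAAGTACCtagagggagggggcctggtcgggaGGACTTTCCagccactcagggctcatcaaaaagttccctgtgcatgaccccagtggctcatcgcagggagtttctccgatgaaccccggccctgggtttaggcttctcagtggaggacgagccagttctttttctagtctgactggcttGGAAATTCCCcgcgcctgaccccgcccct
Tnfaip3, start 1, chr10:19015411-19015660, minus strand: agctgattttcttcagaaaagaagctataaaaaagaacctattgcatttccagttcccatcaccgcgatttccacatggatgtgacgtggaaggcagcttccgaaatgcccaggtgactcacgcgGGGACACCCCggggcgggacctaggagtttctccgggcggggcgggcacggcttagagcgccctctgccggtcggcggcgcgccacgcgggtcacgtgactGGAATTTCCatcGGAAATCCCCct

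The windows of Il6ra and of the upstream Il1r1 start held none of these motifs. The downstream Il1r1 window held GGAATGCCCC, a kB consensus match, and TGTTCT, which is AGAACA on the other strand. In the Nfkbia window GGACTTTCC began at position -178 and the kB match GGAAATTCCC at position -29, counted from the start. The 9 members with an entry have 18 windows, some of which overlap. GGNNNTTCC was present in 9 of the 18 windows and the kB consensus in 6, which belong to Il1r1, Nfkb2, Nfkbia and Tnfaip3. GGACTTTCC was present in 2 of the windows, those of Nfkb2 and Nfkbia, AGAACA in 3, and the palindromic glucocorticoid response element in 0. Of 32851 windows of the same length in the table, 15.7% held GGNNNTTCC, 0.283% held GGACTTTCC, 3.9% held the kB consensus, 16.1% held AGAACA and 0.167% held the palindromic element. A match of letters in such a window does not show that a factor binds there.

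Expression was given as TPM, which corrects for transcript length and scales each library to nearly the same total, here between 983327 and 997319, so that the depth behind a value is unknown. Between 17897 and 20446 genes were above 0 in a library. Alb, the plasma protein albumin of hepatocytes, was between 32823 and 59476 TPM in the livers and at most 0.39 TPM in the duodena, while Sis, the brush border sucrase-isomaltase, was between 599.5 and 864.8 TPM in the duodena and at most 0.01 TPM in the livers. Fkbp5, a gene induced by glucocorticoids, had a log2 fold change of 4.30 in the duodenum (limma adjusted p = 0.00450) and 4.23 in the liver (limma adjusted p = 0.00178). A list of 24 pancreatic acinar genes, of which Reg1 and Zg16 are also made by the duodenum, summed to 46772 and 42633 TPM in the duodenal libraries Veh2 and Veh3, to 7922 TPM in Veh1 and to between 8418 and 10265 TPM in the CORT libraries. Most of the sum in Veh1 was Zg16, at 5831 TPM, and Reg1, at 1885 TPM. In the CORT libraries Zg16 was between 5529 and 6499 TPM and Reg1 between 1883 and 3608 TPM. Prss2, another gene of the list, was at 3289 and 2724 TPM in Veh2 and Veh3 and at most 2.29 TPM in the other duodena. Of the 24 genes, 23 had a log2 fold change below 0. Removing the 24 genes and rescaling left the number of members called in the duodenum at 0.

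Genes were called when limma on log2(TPM + 1) gave a Benjamini-Hochberg adjusted p of at most 0.05 over all tested genes together with a change of more than 1.5-fold, and a gene was tested if its mean reached 1 TPM in Veh or in CORT. All 10 members passed that filter in both tissues. Of the 10 members, 2 rose in the CORT-treated livers, the receptor chains Il1r1 and Il6ra, and 0 fell. Of all 11699 genes tested in the liver, 6.92% were called, 4.91% higher and 2.01% lower in CORT. In the duodenum 0 of 10 members were called, against 2.15% of the 13607 genes tested there, 1.23% higher and 0.919% lower. At an unadjusted limma p under 0.05 with the same limit on fold change, 0 members passed in the duodenum and 3 in the liver, where Ikbkg was added, while 10.3% and 15.5% of all tested genes passed. The values of the 2 groups did not overlap for 1 member in the duodenum, Nfkb1, and for 3 in the liver, Il1r1, Il6ra and Ikbkg, and this held for 26.4% and 32.2% of all tested genes. The median log2 fold change of the members was 0.08 in the duodenum and 0.15 in the liver, beside medians of -0.01 and 0.08 over all tested genes.

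**Figure D1:**
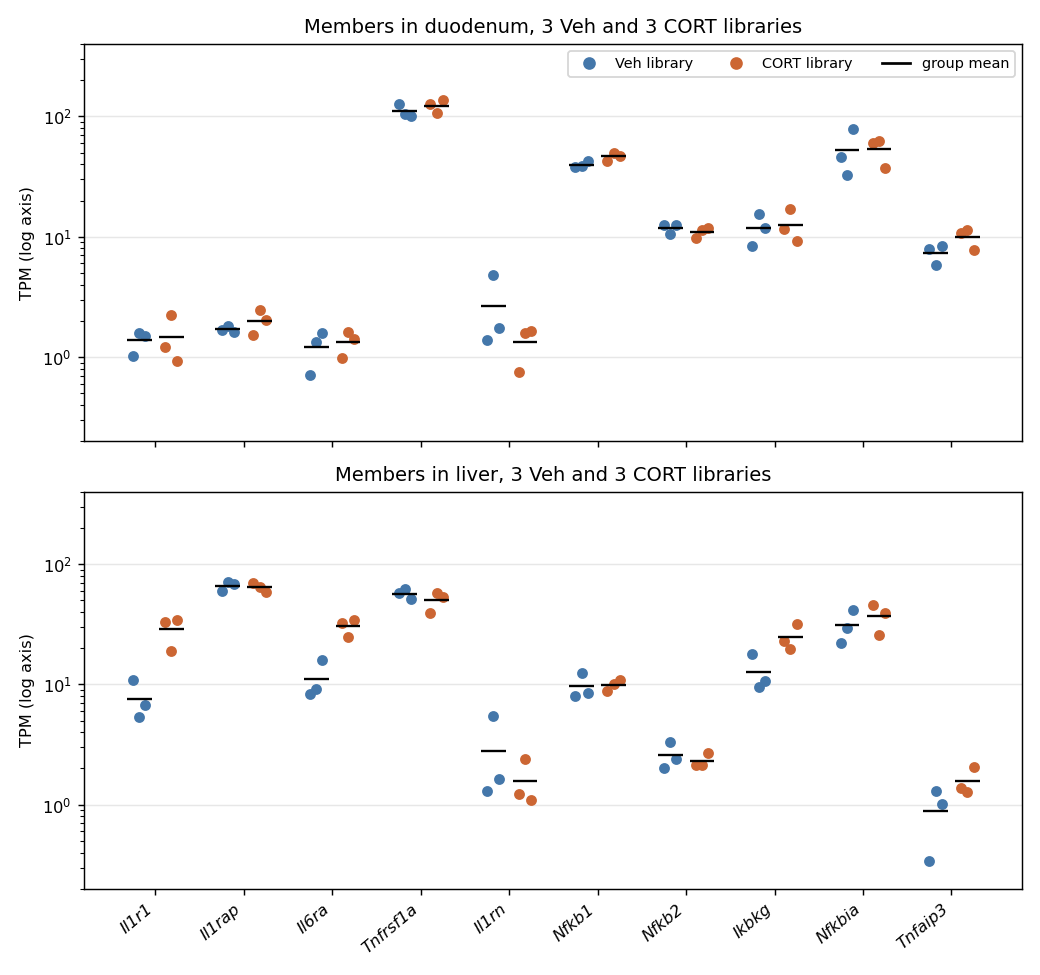
TPM (log axis) of the 10 members in every duodenum (upper) and liver (lower) library, with Veh in blue, CORT in orange and the group mean as a bar. In the liver the 3 CORT points of Il1r1, Il6ra and Ikbkg lie above the 3 Veh points, and the other members overlap.

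**Figure D2:**
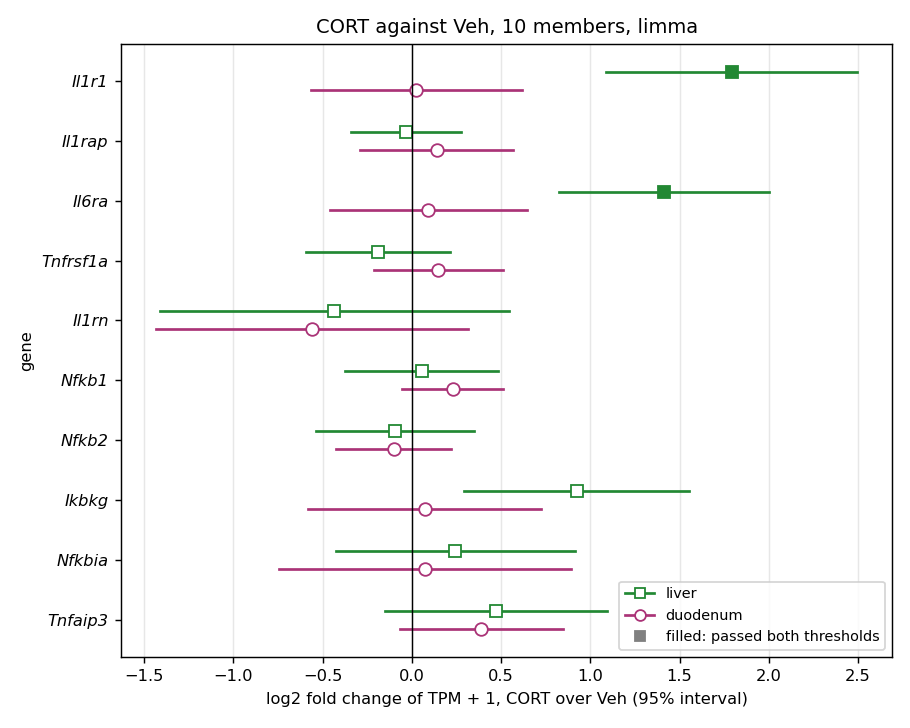
Log2 fold change of TPM + 1, CORT over Veh, with its limma 95% interval for each member, in liver (squares) and duodenum (circles), filled where both thresholds were passed. Il1r1 at 1.79 and Il6ra at 1.41 in the liver are the filled points.

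Il1r1, the signalling receptor for IL-1, was at 10.8, 5.35 and 6.71 TPM in the Veh livers and at 33.0, 19.1 and 34.0 TPM in the CORT livers. The lowest CORT liver, CORT2, lay above the highest Veh liver, Veh1. The mean was 7.61 ± 2.82 TPM (SD, n = 3) in Veh and 28.7 ± 8.34 TPM (SD, n = 3) in CORT. The difference on the log2 scale was 1.79, with a standard error of 0.30 (limma adjusted p = 0.0195). This change was larger than that of 98.6% of the tested liver genes. In whole tissue, a change in the number of cells that make a transcript and a change in the amount per cell cannot be told apart. Leaving out a library kept the call in 3 of 6 cases, since the limma adjusted p was 0.0758 without Veh3, 0.0748 without CORT1 and just over 0.05 without CORT3, while the log2 fold change stayed between 1.60 and 2.05. It was also lost with no filter on low values (log2 fold change 1.79, limma adjusted p = 0.0650). In the duodenum Il1r1 was low, at 1.03, 1.6 and 1.5 TPM in Veh and 1.22, 2.25 and 0.93 TPM in CORT. Those groups overlapped, with a log2 fold change of 0.03 and a 95% interval from -0.56 to 0.62.

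Il6ra, the IL-6 binding chain that pairs with gp130, was at 8.36, 9.14 and 15.8 TPM in the Veh livers and at 32.1, 24.6 and 34.2 TPM in the CORT livers. Veh3 was the highest of its group and still lay below every CORT liver. The mean was 11.1 ± 4.09 TPM (SD, n = 3) in Veh and 30.3 ± 5.04 TPM (SD, n = 3) in CORT. The log2 fold change, at 1.41 with a standard error of 0.25, was called (limma adjusted p = 0.0232) and lay above that of 97.4% of the tested genes. Leaving out a library kept the call in 2 of 6 cases. It was lost without Veh1 (limma adjusted p = 0.0708), Veh2 (0.0545), CORT1 (0.0856) or CORT3 (0.0600), and with no filter on low values (0.0700), while the log2 fold change stayed between 1.25 and 1.67 when a library was left out. In the duodenum Il6ra was at 0.71, 1.33 and 1.60 TPM in Veh and at 0.98, 1.62 and 1.42 TPM in CORT, which overlapped, and the log2 fold change was 0.09 with a 95% interval from -0.46 to 0.65.

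**Figure D3:**
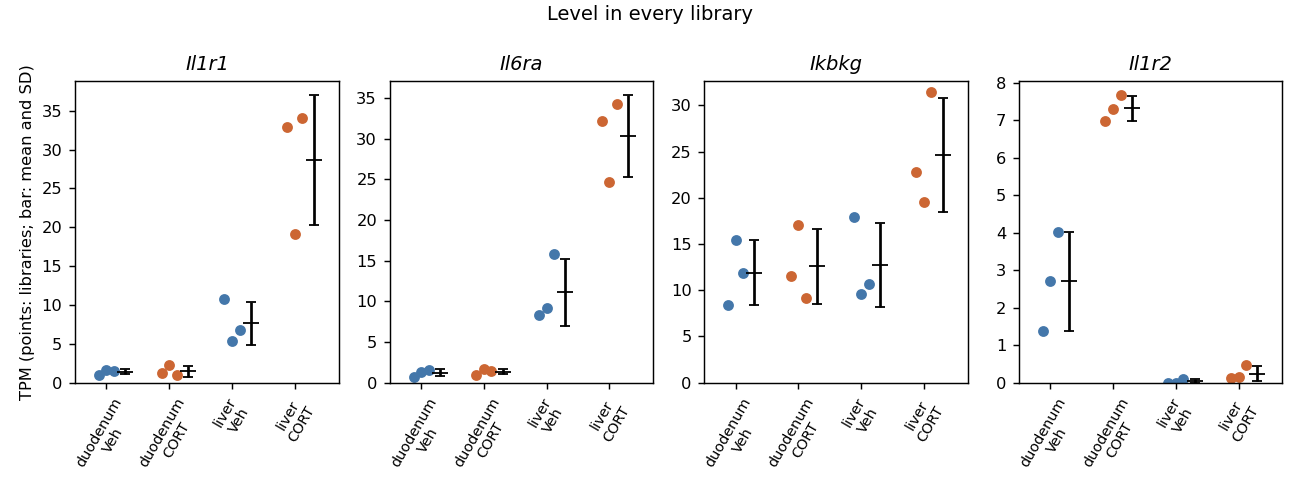
TPM (linear axes from 0) of Il1r1, Il6ra, Ikbkg and Il1r2 in every library, with the mean and SD of each group of 3 beside the points. The receptor chains Il1r1 and Il6ra lie below 3 TPM in all duodena and between 19 and 35 TPM in the CORT livers, while Il1r2 is above 1 TPM only in the duodena.

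Whether the response differed between tissues was tested with a treatment by tissue term over all 12 libraries and the 10500 genes tested in both. Of the members, only Il1r1 passed, with a log2 fold change larger in liver than in duodenum by 1.76 (standard error 0.39, limma adjusted p = 0.0330), and 3.00% of all genes passed. For Il6ra the difference was 1.32 (standard error 0.34, limma adjusted p = 0.0575). The Il1r1 difference lay between 1.67 and 1.90 with a pseudocount of 0.1, no filter or another scaling of the libraries, but its limma adjusted p was then between 0.0604 and 0.0674, so that 0 members passed in each. Leaving out each of the 12 libraries in turn, it passed in 4 cases. The fit treats the tissues as separate animals.

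Il1rap, the accessory chain that IL-1 receptors need to signal, was the most abundant member in the liver, and its groups overlapped there at 59.4, 70.5 and 67.9 TPM in Veh and 70.1, 64.4 and 58.9 TPM in CORT. The log2 fold change was -0.03, with a 95% interval from -0.34 to 0.27. Il1r1 per Il1rap, a ratio of TPM within each liver given as a description, was 0.181, 0.0759 and 0.0988 in Veh and 0.470, 0.296 and 0.577 in CORT. In the duodenum Il1rap lay between 1.52 and 2.46 TPM in all 6 libraries.

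Tnfrsf1a, TNF receptor 1, was the most abundant member in the duodenum. Its values there were 127, 104 and 102 TPM in Veh and 126, 106 and 137 TPM in CORT, which overlapped (log2 fold change 0.15, 95% interval from -0.21 to 0.51). In the liver it was at 57.5, 61.5 and 50.9 TPM in Veh and at 39.5, 57.5 and 52.9 TPM in CORT. There too the groups overlapped, with a log2 fold change of -0.19 and a 95% interval from -0.59 to 0.21. Unlike Il1r1 and Il6ra, this receptor was thus not called in either tissue, and neither interval reached the size of the changes called for those chains in the liver.

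Il1rn, which encodes the secreted antagonist that occupies the IL-1 receptor without signalling, was low and variable. It was at 1.31, 5.44 and 1.62 TPM in the Veh livers and 1.23, 2.39 and 1.09 TPM in the CORT livers, and at 1.38, 4.84 and 1.75 TPM in the Veh duodena and 0.75, 1.59 and 1.64 TPM in the CORT duodena. The library numbered Veh2 was the highest in both tissues. The log2 fold change was -0.43 in the liver (95% interval from -1.41 to 0.54) and -0.56 in the duodenum (95% interval from -1.43 to 0.31), and neither was called. The summed TPM of 9 neutrophil genes was also highest, among Veh libraries, in Veh2, at 24.5 in the liver against 6.36 and 5.92, and at 20.9 in the duodenum against 1.32 and 9.92. In the CORT livers that sum was 0.90, 31.3 and 35.8. Most of the sum in the Veh2 and Veh3 duodena was 1 gene, Retnlg, at 15.9 and 7.08 TPM. S100a8 was at 0 in every Veh duodenum, and S100a9 was at most 1.27 TPM there. The part of neutrophils in the Il1rn values was not tested.

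Ratios within a library do not depend on how the library is scaled. The antagonist to receptor ratio, Il1rn to Il1r1, had a mean of 0.460 ± 0.486 (SD, n = 3) in the Veh livers and 0.0649 ± 0.0524 (SD, n = 3) in the CORT livers. The highest CORT ratio, 0.125, overlapped the lowest Veh ratio, 0.122, and the difference of log2 ratios was -2.55 (two-sided exact permutation p = 0.2, adjusted p = 0.6 over the 6 ratio tests). In the duodenum the ratio was 1.84 ± 1.03 in Veh and 1.03 ± 0.638 in CORT (SD, n = 3 each), with a difference of log2 ratios of -0.88 (exact permutation p = 0.3, adjusted p = 0.6). The ratio of Il6ra to Il6st, the gene of gp130, was 0.876 ± 0.446 in the Veh livers and 1.47 ± 0.289 in the CORT livers (SD, n = 3 each), a difference of 0.86 on the log2 scale (exact permutation p = 0.2, adjusted p = 0.6), and it was 0.137 and 0.131 on average in the Veh and CORT duodena (exact permutation p = 1). With 3 samples against 3 this exact test cannot give a two-sided p below 0.1.

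Ikbkg encodes NEMO, the scaffold of the kinase complex that acts on the IkB proteins. Its values in the liver were 17.9, 9.54 and 10.7 TPM in Veh and 22.8, 19.5 and 31.5 TPM in CORT, so that every CORT liver lay above every Veh liver, by little for Veh1 and CORT2. The log2 fold change was 0.92 (standard error 0.27, 95% interval from 0.29 to 1.55), and it did not pass over all genes (limma adjusted p = 0.0860). In the duodenum Ikbkg was at 8.40, 15.4 and 11.8 TPM in Veh and 11.5, 17.1 and 9.14 TPM in CORT, which overlapped, with a log2 fold change of 0.07. The annotation places G6pdx, a glucose-6-phosphate dehydrogenase gene, on the opposite strand over part of Ikbkg. G6pdx was between 0.90 and 1.98 TPM in the Veh livers and between 1.98 and 4 TPM in the CORT livers, and in the duodenum it was between 43.6 and 55.9 TPM in Veh and between 24.5 and 29.9 TPM in CORT. The authors aligned the reads in orientation mode, but whether genes were then counted by strand is not given in the sources used here, so reads of these overlapping genes may be shared.

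The NF-kB subunits themselves were not called. Nfkb1, which encodes the p105 precursor of p50, was at 37.9, 38.7 and 42.4 TPM in the Veh duodena and at 43.0, 50.1 and 46.9 TPM in the CORT duodena. The groups did not overlap, but the log2 fold change was 0.23 with a 95% interval from -0.05 to 0.51 (limma adjusted p = 0.348). In the liver Nfkb1 lay between 8.07 and 12.4 TPM in Veh and between 8.89 and 10.9 TPM in CORT, a log2 fold change of 0.06 that became -0.03 with median-ratio scaling. Nfkb2, which encodes the p100 precursor of p52, had a log2 fold change of -0.10 in both tissues, with values between 9.78 and 12.6 TPM in the duodenum and between 2.03 and 3.32 TPM in the liver. Its gene overlaps, on the opposite strand, Psd and AC114539.1.

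The inhibitors are themselves targets of NF-kB. Nfkbia, the gene of IkB-alpha and, in textbook accounts, one that glucocorticoids can raise, was at 22.2, 29.4 and 41.9 TPM in the Veh livers and at 45.5, 25.7 and 39.4 TPM in the CORT livers. It was at 46.3, 32.7 and 79.3 TPM in the Veh duodena and at 60.4, 62.7 and 37.1 TPM in the CORT duodena. The groups overlapped in both tissues, and the log2 fold changes were 0.24 in the liver (95% interval from -0.43 to 0.91) and 0.07 in the duodenum (95% interval from -0.74 to 0.89). Both intervals were wide and included a change of 1.5-fold, which is 0.585 on the log2 scale. The summed TPM of Nfkbia, Nfkbib and Nfkbie over that of the NF-kB subunits Rela, Relb, Rel, Nfkb1 and Nfkb2 was 1.54 ± 0.343 in the Veh livers and 1.63 ± 0.139 in the CORT livers (SD, n = 3 each, exact permutation p = 0.7). In the duodenum the same ratio was 0.880 ± 0.183 in Veh and 0.924 ± 0.160 in CORT (SD, n = 3 each, exact permutation p = 1).

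Tnfaip3 encodes A20, a ubiquitin-editing enzyme that shuts off signals to NF-kB. In the duodenum it was at 7.86, 5.83 and 8.36 TPM in Veh and at 10.7, 11.5 and 7.71 TPM in CORT, where CORT3 lay within the Veh range. In the liver it was near the lower limit of the tested genes, at 0.34, 1.29 and 1.02 TPM in Veh and 1.38, 1.28 and 2.05 TPM in CORT, with CORT2 just below the highest Veh liver. The log2 fold changes were 0.39 in the duodenum (limma adjusted p = 0.328) and 0.47 in the liver (limma adjusted p = 0.306), and a fold change of so low a gene is understated on the log2(TPM + 1) scale.

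In order of level in the Veh duodena, Tnfrsf1a came first at a mean of 111 TPM, followed by Nfkbia at 52.8 and Nfkb1 at 39.7 TPM, whose ranges overlapped. Nfkb2 and Ikbkg followed at 11.9 TPM each, then Tnfaip3 at 7.35 TPM, and the IL-1 and IL-6 receptor genes and Il1rn were lowest at 1.21 to 2.66 TPM. In the Veh livers Il1rap at 65.9 and Tnfrsf1a at 56.6 TPM overlapped at the top, and Nfkbia followed at 31.2 TPM. Ikbkg, Il6ra, Nfkb1 and Il1r1 each overlapped the next in the order, from 12.7 down to 7.61 TPM, and Tnfaip3 was lowest at 0.883 TPM. In the CORT livers Il6ra and Il1r1 had means of 30.3 and 28.7 TPM, and their ranges overlapped each other and those of Nfkbia, with a mean of 36.9 TPM, and Ikbkg, with a mean of 24.6 TPM, while both lay above Nfkb1 with no overlap. The levels of the tissues come from separate tables.

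The other genes of these pathways were taken from lists of ligands, other receptors, adaptors and kinases, other NF-kB subunits, other inhibitors, JAK-STAT genes and NF-kB targets, 102 genes in all. In the liver 69 of them were tested and 5 were called, all higher in CORT in that fit, beside 6.92% of all tested genes. In the duodenum 83 were tested and 3 were called, 2 higher and 1 lower, beside 2.15% of all tested genes. These shares lie near the background, and nothing is read from them. The direction of the liver calls depended on the fit. With median-ratio scaling 7 were called, 4 higher and 3 lower, the lower ones being Ccl5, Tradd and Tyk2, and without CORT3 4 were called, 1 higher and 3 lower, the lower ones being Ccl5, Cxcl1 and Zfp36. These genes were named after their values were seen. The median log2 fold change of the tested genes was 0.15 in the liver and 0.02 in the duodenum. By list, and of the genes tested, calls in the liver fell on 3 of 15 other inhibitors, 1 of 9 JAK-STAT genes, 1 of 13 NF-kB targets, and 0 of 2 ligands, 7 other receptors, 22 adaptors and kinases and 1 other subunit. In the duodenum they fell on 1 of 15 other inhibitors, 1 of 12 other receptors and 1 of 16 NF-kB targets, and on 0 of 5 ligands, 22 adaptors and kinases, 3 other subunits and 10 JAK-STAT genes.

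**Figure D4:**
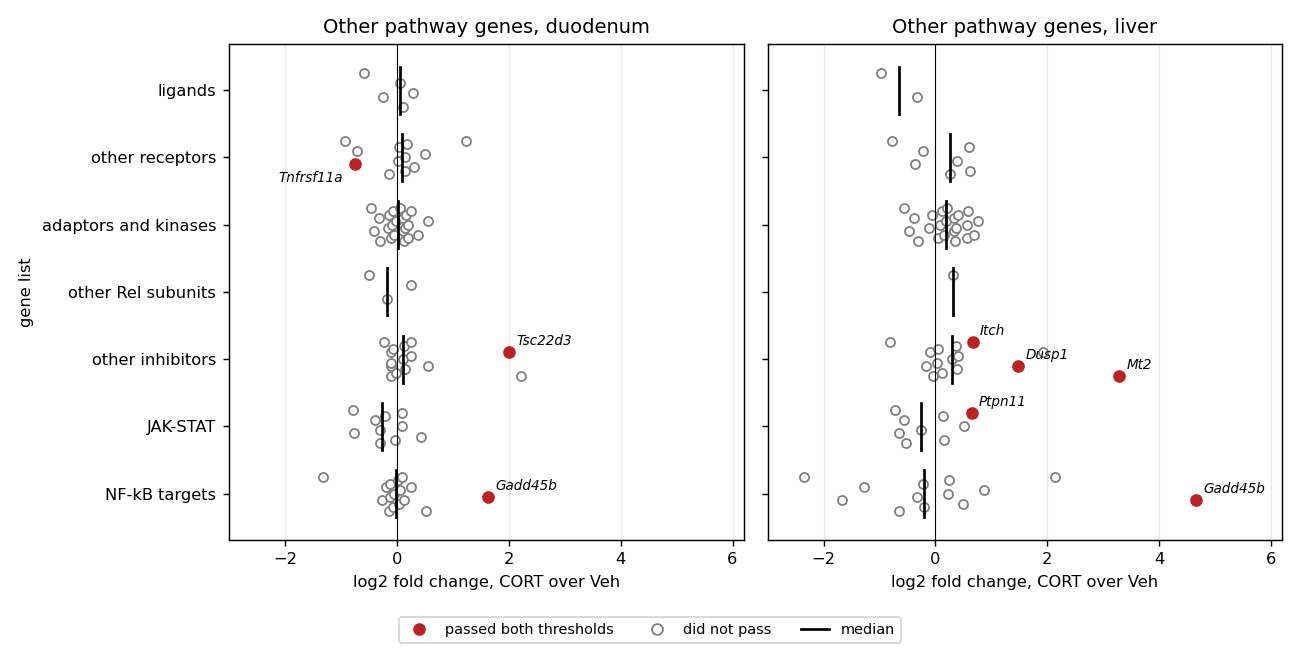
Log2 fold change of TPM + 1, CORT over Veh, of the other pathway genes tested, by list, in duodenum (left) and liver (right). Filled points passed both thresholds and black bars are list medians. The 5 genes called in the liver without further scaling lie to the right of 0, and Tnfrsf11a in the duodenum is the called gene on the left.

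Gadd45b, a stress-induced NF-kB target that restrains JNK signalling, was the called gene that the tissues had in common. It was at 0.82, 0.96 and 1.87 TPM in the Veh livers and 110, 20.6 and 67.5 TPM in the CORT livers, a log2 fold change of 4.66 (limma adjusted p = 0.00693). In the duodenum it was at 4.95, 8.91 and 11.7 TPM in Veh and 32.8, 24.3 and 25.4 TPM in CORT, a log2 fold change of 1.64 (limma adjusted p = 0.0392). Leaving out a library kept that duodenal call in 1 of 6 cases. The change of Gadd45b was larger in liver than in duodenum by 3.02 in the treatment by tissue term (limma adjusted p = 0.0330). Mt2, Dusp1 and Tsc22d3 stand on the list of other inhibitors as genes that glucocorticoids induce, and Dusp1 and Tsc22d3 are held to restrain MAP kinases and NF-kB. Mt2, a metallothionein, rose in the liver with a log2 fold change of 3.28 (limma adjusted p = 0.0342), and Dusp1, a MAP kinase phosphatase, rose there by 1.48 (limma adjusted p = 0.0480). Tsc22d3, known as GILZ, rose in the duodenum with a log2 fold change of 2.01 (limma adjusted p = 0.0185), a call kept in 3 of 6 cases when a library was left out. Its limma adjusted p was 0.0554 with no filter on low values and 0.0774 with the replicate block. In the liver Tsc22d3 had a log2 fold change of 1.92 and did not pass (limma adjusted p = 0.0623).

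Itch, an E3 ubiquitin ligase that works with A20, was between 8.18 and 11.1 TPM in the Veh livers and between 14.7 and 17.2 TPM in the CORT livers, a log2 fold change of 0.67 (limma adjusted p = 0.0422). Ptpn11, the phosphatase SHP2 that binds gp130, was between 10.5 and 13.7 TPM in Veh and between 17.1 and 20.5 TPM in CORT, a log2 fold change of 0.65 (limma adjusted p = 0.0470). The calls of Itch, Ptpn11, Mt2 and Dusp1 were each kept in 1 of 6 cases when a library was left out. Myd88, the adaptor of IL-1 and Toll-like receptors, and Tab2, a partner of the kinase TAK1, passed the limit on limma adjusted p in the liver (0.0307 and 0.0470) with log2 fold changes of 0.57 each, under the limit on fold change. Tnfrsf11a, the receptor for RANK ligand, was at 10.4, 8.77 and 10.7 TPM in the Veh duodena and 5.15, 5.30 and 6.02 TPM in the CORT duodena. Its log2 fold change was -0.75 (limma adjusted p = 0.0428), and leaving out any of the 6 libraries ended the call.

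Those direct partners of the members that were tested were not called in the main fit. Il6st was at 10.8, 18.7 and 11.6 TPM in the Veh livers and 17.96, 20.1 and 24.5 TPM in the CORT livers, where CORT1 lay below Veh2. Its log2 fold change was 0.60 (limma adjusted p = 0.153). When a library was left out, Il6st was called in the liver in 1 of 6 cases (lowest limma adjusted p = 0.0405). Tnfrsf1b, TNF receptor 2, had log2 fold changes of 0.38 in the liver and 0.05 in the duodenum, and Rela, the p65 subunit, had 0.31 and -0.17. For Chuk and Ikbkb, the IkB kinases that bind NEMO, they were 0.05 and 0.08 in the liver and 0.14 and -0.14 in the duodenum, and with median-ratio scaling the liver values were -0.04 and -0.01. Of the ligands these receptors bind, Il6 was listed at 0 in every duodenum and every Veh liver and reached 0.15 TPM in 1 CORT liver, and Tnf was at most 0.33 TPM in any library. Il1b was between 1.08 and 3.27 TPM in the duodena, and in the livers it was at 0.79, 0.98 and 0.85 TPM in Veh and at 0.12, 0.41 and 0.75 TPM in CORT, below the level at which genes were tested. Il18, another IL-1 family ligand, named after its values were seen, was between 137 and 200.4 TPM in the duodena and between 3.97 and 9.84 TPM in the livers.

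Il1r2, the decoy receptor that binds IL-1 without signalling, lies beside Il1r1 in the annotation. It was at 1.37, 2.72 and 4.01 TPM in the Veh duodena and 6.99, 7.30 and 7.66 TPM in the CORT duodena, which did not overlap. The log2 fold change was 1.23 (standard error 0.27), and it did not pass over all genes (limma adjusted p = 0.0712). In the livers it was at most 0.10 TPM in Veh and 0.46 TPM in CORT and was not tested. The genes that follow Il1r1 on its other side, Il1rl2, Il1rl1, Il18r1 and Il18rap, were at most 0.18 TPM in every liver, and Il1r1 was the gene of this cluster at a level above 1 TPM there.

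The genes whose pattern was most like that of the called members were found by Pearson correlation of log2(TPM + 1) over the 12 libraries, each tissue centred on its own mean, among 10500 genes. These r values are a description, since the libraries share the treatment. For Il1r1 they were Serpine2 (r = 0.979), Lnx2 (r = 0.960) and Ppp1r3c (r = 0.944). Serpine2, a serine protease inhibitor, was at 8.80, 4.42 and 4.86 TPM in the Veh livers and 84.0, 38.5 and 102.7 TPM in the CORT livers. Ppp1r3c, a glycogen-targeting subunit of protein phosphatase 1, was at 18.4, 5.58 and 12.8 TPM in the Veh livers and 228, 46.9 and 146 TPM in the CORT livers. For Il6ra they were Jade2 (r = 0.960), Syde2 (r = 0.938) and Adcy9 (r = 0.936), of which Jade2 was between 0.84 and 1.60 TPM in Veh and between 4.14 and 5.30 TPM in CORT livers. Among the members, r with Il1r1 was 0.910 for Ikbkg and 0.849 for Il6ra.

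Markers of the cell types that a liver holds were read beside the receptor results, because endothelial cells, stellate cells and macrophages also carry Il1r1 or Il6ra. All 7 endothelial markers were higher on average in CORT livers, 6 of them without overlap, and none was at 0 on average in either group. Their summed TPM was between 31.2 and 71.3 in Veh and between 93.9 and 105 in CORT, a fold of 2.09 between the means. Of the 7, Pecam1 (log2 fold change 1.52, limma adjusted p = 0.0370) and Stab2 (log2 fold change 1.04, limma adjusted p = 0.0164) were called. Over all tested liver genes, 32.2% did not overlap and 6.92% were called, with a median log2 fold change of 0.08. Of 13 macrophage markers 12 had a log2 fold change above 0, 2 did not overlap and 1 was called, the haemoglobin scavenger receptor Cd163. Their sum was between 194 and 235 TPM in Veh and between 179 and 508 TPM in CORT. Cd163 was also called in the duodenum (log2 fold change 1.60, limma adjusted p = 0.0329). The macrophage sums overlapped there, at 157 to 274 TPM in Veh and 207 to 290 TPM in CORT. The 8 fibroblast and stellate markers summed to between 54.4 and 148 TPM in Veh and between 120 and 159 TPM in CORT, with 0 called. The part of these cells in the Il1r1 and Il6ra values was not tested.

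**Figure D5:**
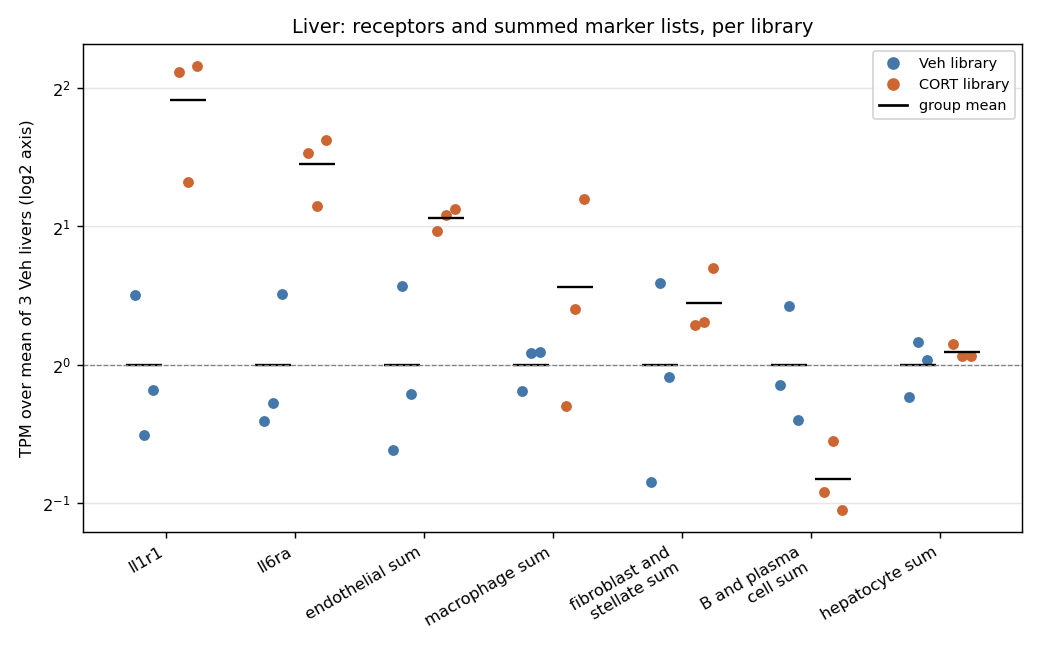
TPM of Il1r1, of Il6ra and of summed marker lists in each liver, divided by the mean of the 3 Veh livers (log2 axis, dashed line at 1), with group means as bars. The CORT points of Il1r1, Il6ra and the endothelial sum lie above all their Veh points, and the hepatocyte sums overlap.

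The 7 hepatocyte markers summed to between 95220 and 125506 TPM in the Veh livers and between 116563 and 123911 TPM in the CORT livers, which overlapped, with 0 called. The 7 B cell and plasma cell markers summed to between 123 and 217 TPM in the Veh livers and between 78.3 and 111 TPM in the CORT livers, but 0 of the 4 tested were called. Most of that sum was Xbp1, which hepatocytes also make, at 119 to 209 TPM in Veh and 77.7 to 111 TPM in CORT, while Mzb1 had means of 0.127 TPM in Veh and 0.257 TPM in CORT. The 10 T and NK cell markers summed to at most 5.64 TPM in any liver. In the duodenum the B and plasma cell sum was between 988 and 1185 TPM in Veh and between 324 and 664 TPM in CORT, and the sum of 5 erythroid genes was between 119 and 247 TPM in Veh and between 366 and 706 TPM in CORT. The duodenal endothelial sums overlapped, at 33.8 to 45.6 TPM in Veh and 34.99 to 45.2 TPM in CORT. The part of these cells in the values of the members was not tested.

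Further overlaps in the annotation bear on single members. Il1rap shares its locus with the antisense gene Gm20319, which was at 121, 142 and 137 TPM in the Veh livers and at 101, 108 and 60.1 TPM in the CORT livers, above Il1rap itself in every liver. Reads from the antisense gene could have been counted for Il1rap, and this was not tested. The antisense gene Gm42809 at Il6ra was at most 0.66 TPM in any library and Gm38070, on the same strand as Il1r1, at most 0.23 TPM.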

How the data were processed

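Paired-end reads were cleaned by the authors with SeqPrep and Sickle, mapped with HISAT2 in orientation mode, assembled by StringTie and quantified by RSEM. The deposited unit is TPM, with 1 column for each library. The build GRCm39 comes from the submitters' processing notes, and tool versions are not given in the sources used here. Depth is unknown for TPM, so precision comes from the spread between samples, 3 per group. The limma fit moderates that spread toward a trend over all tested genes.

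Log2(TPM + 1) was taken of the deposited TPM. Genes whose mean reached 1 TPM in Veh or in CORT were fitted tissue by tissue with the lmFit and trended eBayes functions of limma 3.58.1 (R 4.3.3). Adjustment over all tested genes followed Benjamini and Hochberg, and a called gene had an adjusted p of at most 0.05 and changed by more than 1.5-fold. The pseudocount makes the fold change of a low gene too small. A treatment by tissue term was fitted over all 12 libraries. Ratios of TPM were compared by an exact two-sided permutation test. The fits were tested on simulated data.

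All 10 members are named, with every called gene of the pathway lists, their direct partners Il1r2, Il6st, Tnfrsf1b, Rela, Ikbkb, Chuk, Tnf, Il1b and Il6, Fkbp5 as control, and the 3 genes most like each called member. Myd88, Tab2, Il18, Ccl5, Tradd, Tyk2, Cxcl1, Zfp36, marker genes and overlapping genes were named after their values were seen. The members and the gene lists were chosen with earlier results of these data known. Alternatives were a pseudocount of 0.1, no filter, median-ratio scaling, a replicate block, leaving out each library, unadjusted p, no limit on fold change and, in the duodenum, removal of 24 acinar genes. Gene names are those of the tables, overlaps and gene order come from the supplied mouse annotation, and no coordinates beyond the promoters are given. Nfkb1 has no entry in the promoter table. Protein sequences were not used here.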

Additional observations from a re-analysis of the deposited data

Results flagged for a closer look

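In the main fit the CORT response of Il1r1 differed between the tissues, a result that other settings did not keep. Its log2 fold change was larger in liver than in duodenum by 1.76 in the treatment by tissue term (limma adjusted p = 0.0330), with all 3 CORT livers above all 3 Veh livers and overlapping groups in the duodenum. The adjusted p was between 0.0604 and 0.0674 under the other pseudocount, the absence of a filter and the other scaling. The summed endothelial markers did not overlap in the liver (fold of 2.09) and overlapped in the duodenum (fold of 0.976). In the Veh livers, in order of number, that sum was 31.2, 71.3 and 41.5 TPM, and Il1r1 was at 10.8, 5.35 and 6.71 TPM. In the CORT livers the sum was 93.9, 102 and 105 TPM, and Il1r1 was at 33.0, 19.1 and 34.0 TPM. The part of endothelial cells in the Il1r1 values was not tested.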

How the results depend on the processing

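The count of members called in the duodenum was 0 under every alternative. In the liver 2 members were called in the main fit, 0 with no filter on low values, and 0 to 2 when a library was left out, with 0 without CORT1 or without CORT3 and 1 without any single Veh library. Of the members, 1 differed between tissues, against 0 with a pseudocount of 0.1, with no filter and with median-ratio scaling, and 0 to 2 when a library was left out. Of the other pathway genes in the duodenum, 3 were called, against 0 with no filter, 0 with the replicate block, 9 at unadjusted p and 0 to 2 without a library. In the liver 5 were called, against 8 with a pseudocount of 0.1, 1 with no filter, 3 with the replicate block, 17 at unadjusted p and 1 to 6 without a library. Median-ratio scaling gave 7, of which 4 were higher and 3 lower, and leaving out CORT3 gave 4, of which 1 was higher and 3 were lower, against 5 higher and 0 lower. The cause of these shifts was not tested. More genes were tested without a filter (24876 and 23316), and fewer samples remained when a library was left out. Over all genes, 292 calls in the duodenum became 52 with no filter, 62 with the replicate block, 1395 at unadjusted p and 66 to 237 without a library, and 810 calls in the liver became 283, 307, 1808 and 247 to 831. With median-ratio scaling 543 of 1011 liver calls were higher in CORT, against 575 of 810.

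Within a tissue, the deviations of same-numbered Veh and CORT samples from their group means were correlated over genes. The correlation was 0.05, 0.07 and -0.0039 in the duodenum and 0.04, -0.0084 and -0.12 in the liver. These values give no sign that the numbers pair Veh with CORT samples, but they cannot exclude it. They do not bear on whether a duodenum and a liver with the same number came from 1 mouse. The replicate block left the calls of Il1r1 and Il6ra in place.

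Directions that turned were all of values that were not called. With median-ratio scaling the liver log2 fold changes became -0.030 for Nfkb1, -0.040 for Chuk and -0.011 for Ikbkb, and the tissue difference of Nfkb2 became -0.061, or -0.015 with a pseudocount of 0.1. When a library was left out, liver values ran from -0.030 to 0.17 for Chuk, -0.014 to 0.15 for Ikbkb, -0.10 to 0.030 for Il1rap, -0.71 to 0.029 for Il1rn, -0.050 to 0.23 for Nfkb1 and -0.21 to 0.047 for Nfkb2. Duodenal values ran from -0.16 to 0.26 for Ikbkg, -0.17 to 0.35 for Il1b, -0.19 to 0.18 for Il1r1, -0.083 to 0.22 for Il6ra, -0.22 to 0.41 for Nfkbia and -0.13 to 0.16 for Tnfrsf1b. Tissue differences ran from -0.27 to 0.59 for Il1rn, -0.28 to 0.0023 for Nfkb1, -0.11 to 0.15 for Nfkb2, -0.17 to 0.46 for Nfkbia and -0.15 to 0.24 for Tnfaip3. The log2 ratio differences ran from -0.028 to 0.24 in the duodenum and -0.051 to 0.27 in the liver for IkB to NF-kB subunits, and from -0.32 to 0.20 for Il6ra to Il6st in the duodenum.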
